A study of Mus musculus with 14 samples.

Results

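Embryoid bodies (EB) of mouse cells labelled TKO were compared with embryoid bodies of cells labelled wild type (WT), on 8 of the 14 Affymetrix arrays of the series. An embryoid body is an aggregate in which embryonic stem cells (ESC) leave the pluripotent state and form derivatives of the germ layers. By their titles, 5 arrays were TKO EB, from the lines 2-55-2, 14-14-4, 7-4-1, Dutch and Ta1-12, and 3 were WT EB, from the lines B21, J1 and R1. The other 6 arrays, 3 of WT ESC from the same WT lines and 3 of TKO ESC from 7-4-1, Dutch and Ta1-12, served as reference. TKO is not spelled out in the labels, and since the series is about the Rb gene family it is taken here to mean loss of all 3 family genes, Rb1, Rbl1 and Rbl2. The labels name no strain, agent, treatment or culture time for any group. The series text calls the arrays of a group biological replicates. Each line was measured once as EB and the genotypes came from different lines, so an effect of a line, of its derivation or of its culture on that day cannot be told apart from the array.

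Rb1, Rbl1 and Rbl2 encode the pocket proteins Rb, p107 and p130. They bind E2F transcription factors and hold back genes of S phase entry and DNA replication, and p107 and p130 do so within the DREAM complex, which also holds the MuvB core (Lin9, Lin37, Lin52, Lin54 and Rbbp4) and represses genes of G2 and mitosis in resting cells. D cyclins with Cdk4 or Cdk6 phosphorylate pocket proteins and release E2F, and INK4 inhibitors block these kinases. In embryoid bodies, cells normally lengthen the cell cycle and leave it as they differentiate, and the series title concerns exit and terminal differentiation in cells without this family.

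E2F factors bind sites such as TTTCCCGC, TTTGGCGC, TTTCGCGC and TTTGCCGC. These letters were searched for on both strands of the 250 bases before each gene's start in RefSeq promoters of build GRCm38.p6. They stood in 9 of 38 promoters (23.7%) of the genes in a list of E2F targets of G1/S and replication, in 439 of 14641 promoters (3%) of all genes tested and in 611 of 32851 RefSeq promoters (1.86%). The letters TTTGAA and TTCGAA, a site of the MuvB core in promoters of G2/M genes, stood in 14 of 33 promoters (42.4%) of the list of G2/M genes and in 12.4% of the promoters of genes tested. Below are the last 90 bases before the start for Zfp367, a zinc finger gene that was higher in all 5 TKO EB arrays, for Mcm6, Mcm3 and Mcm2, subunits of the replicative helicase named by the gene rule, and for Orc1, a subunit of the origin recognition complex chosen after the search. Each reads 5′ to 3′ on the gene's strand, with E2F letters on either strand in capitals.
Zfp367 (chr13:64153200-64153289, minus strand): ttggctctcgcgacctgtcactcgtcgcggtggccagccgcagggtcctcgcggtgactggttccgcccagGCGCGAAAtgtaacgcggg
Mcm6 (chr1:128359706-128359795, minus strand): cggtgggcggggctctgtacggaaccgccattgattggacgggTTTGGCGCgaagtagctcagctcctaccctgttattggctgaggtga
Mcm3 (chr1:20820313-20820402, minus strand): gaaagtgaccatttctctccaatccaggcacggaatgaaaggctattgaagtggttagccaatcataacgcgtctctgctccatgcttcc
Mcm2 (chr6:88898781-88898870, minus strand): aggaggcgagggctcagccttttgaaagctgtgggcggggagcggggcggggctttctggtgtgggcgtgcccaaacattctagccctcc
Orc1 (chr4:108579364-108579453, plus strand): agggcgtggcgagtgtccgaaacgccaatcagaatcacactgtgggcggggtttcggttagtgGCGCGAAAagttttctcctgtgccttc
The capitals begin 19 bases before the start in Zfp367, 47 in Mcm6 and 27 in Orc1. Mcm6 held 3 such matches in the whole 250 bases, and Mcm3 and Mcm2 held 0. A match is a description of letters and not of binding.

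In 4 of the 5 TKO lines, the means of replication and mitosis genes stood above every WT EB array and the mean of keratin and junction genes stood below every WT EB array. In 3 of these 4 the mean of pluripotency genes stood above WT EB, and in 7-4-1 it lay within the WT range. The array labelled TKO EB Ta1-12 did not share this pattern. Of 41 E2F targets tested, 39 lay above all 3 WT EB arrays in TKO EB 2-55-2, 38 in 14-14-4, 39 in 7-4-1 and 38 in Dutch, but 2 in the array labelled Ta1-12. Of all 14360 genes tested, 18.5%, 23.4%, 28.7%, 30.9% and 17.4% lay above all WT EB arrays in these 5 arrays. All 37 G2/M genes tested did so in each of the first 4 lines, and 0 in the array labelled Ta1-12. With all 5 lines together, 0 of 14360 genes passed an adjusted p of 0.05 (0% called; limma with Benjamini-Hochberg adjustment), and 2027 genes (14.1%) had an unadjusted p under 0.05, of which 637 (4.44%) were higher and 1390 (9.68%) lower in TKO EB. The lowest adjusted p was 0.121.

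The targeted genes were examined first, in the array order given above (2-55-2, 14-14-4, 7-4-1, Dutch and Ta1-12 for TKO EB; B21, J1 and R1 for WT EB), which is kept for all intensities below. Rbl1 had intensities of 31.7, 15.9, 38.3, 377 and 1096 in TKO EB and of 586, 1089.6 and 493 in WT EB. The lines 2-55-2, 14-14-4 and 7-4-1 thus lay near or under the floor of 32 to which low intensities were raised, Dutch lay below the WT arrays, and the array labelled Ta1-12 lay above them. A second probe set of Rbl1 gave 14.7, 12.7, 28.1, 135.5 and 194.2 in TKO EB and 114.0, 174.2 and 140.1 in WT EB. On this set Dutch lay between WT EB B21 and R1, within the WT range and unlike its place on the first set. In EB this set thus did not bear out the label of Dutch. The array labelled Ta1-12 again lay above all WT arrays and the other 3 lines below them. In ESC the first probe set gave 24.5 in TKO 7-4-1, 250.3 in Dutch and 492.5 in the array labelled Ta1-12, against 693.8, 461.6 and 355.6 in WT B21, J1 and R1. The second set gave 36.6, 88.2 and 328.2 in these TKO ESC and 339, 413 and 297 in WT ESC. Dutch thus lay below all WT ESC arrays on both sets, and the array labelled Ta1-12 within their range. For line Ta1-12 the Rbl1 signal therefore went against the label at both stages. The log2 difference of Rbl1 between TKO EB and WT EB was -2.63 ± 1.17 (standard error, n = 5 and 3; limma adjusted p = 0.345), and without line Ta1-12 it was -3.46 ± 0.90 (n = 4 and 3; adjusted p = 0.0422).

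Rbl2 had intensities of 297, 314, 733, 456 and 1099 in TKO EB and of 1727, 1684 and 723 in WT EB. TKO 7-4-1 and the array labelled Ta1-12 overlapped with WT EB R1, and the other 3 TKO arrays lay below all WT arrays. A second probe set of Rbl2 gave 115.8, 94.3, 169.7, 102.7 and 253.2 in TKO EB and 392.5, 440.9 and 255.1 in WT EB, without overlap. In ESC the first set gave 799.7 in TKO 7-4-1, 658.5 in Dutch and 843.2 in the array labelled Ta1-12. WT ESC B21, J1 and R1 gave 661.3, 562.0 and 411.1. The second set gave 229.1, 171.1 and 216.8 in these TKO ESC and 158.1, 175.6 and 122.5 in WT ESC. On neither set was Rbl2 lower in TKO ESC as a group, so it did not bear out the TKO label there. The log2 difference of Rbl2 in EB was -1.33 ± 0.42 (limma adjusted p = 0.304), and without line Ta1-12 it fell by 1.61 ± 0.38 (adjusted p = 0.0308). Rb1 gave 913, 492, 834, 888 and 301 in TKO EB and 1018, 407 and 686 in WT EB, which overlapped, with a difference of -0.06 ± 0.65 (adjusted p = 0.973). The array labelled Ta1-12 was the lowest of all EB arrays, and the other TKO lines lay within the WT range. In ESC Rb1 gave 196.7 in TKO 7-4-1, 607.1 in Dutch and 115.9 in the array labelled Ta1-12, again the lowest. WT ESC B21, J1 and R1 gave 635.9, 138.0 and 790.6. Unlike Rbl1, Rb1 thus did not go against the label of line Ta1-12. In the other TKO lines Rb1 lay within the WT range at each stage measured and did not bear out their label. No source used here places these probes against the deleted stretches of the genes, and signal from a probe that lies outside such a stretch would check nothing.

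**Figure D1:**
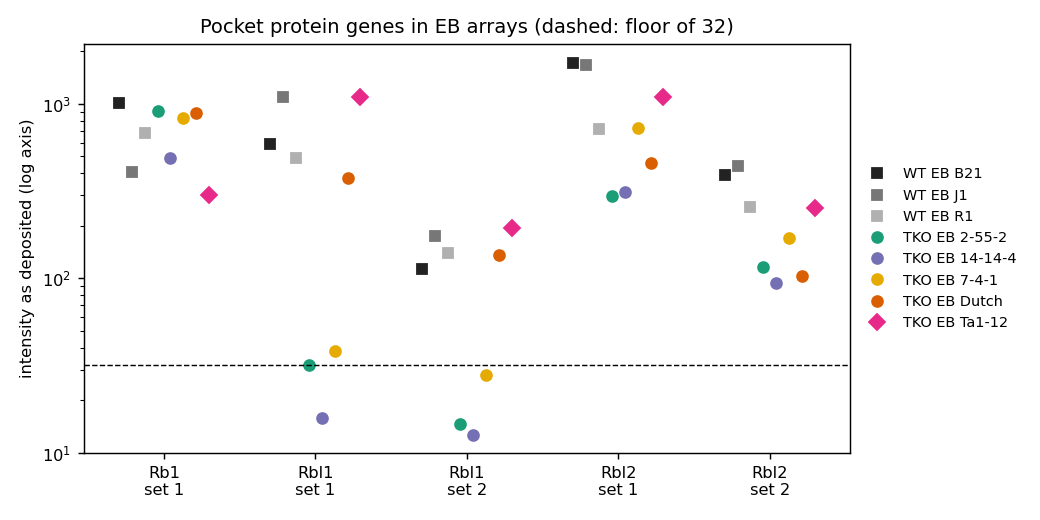
Intensity as deposited (log axis) of the Rb1, Rbl1 and Rbl2 probe sets in each EB array, with squares for WT EB, circles for TKO EB and a diamond for the array labelled TKO EB Ta1-12; the dashed line is the floor of 32. On the first Rbl1 set, 3 TKO lines lie between 15.9 and 38.3 and the array labelled Ta1-12 at 1096, beside 493 to 1089.6 in WT EB.

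Facts of the arrays bear on every value. Array medians ran from 87.2 to 107.9 in EB, and 25.7% to 28.6% of probe sets lay under the floor. The median SD of a gene on the log2 scale was 0.418 among TKO EB, 0.283 among WT EB, 0.211 among WT ESC and 0.194 among TKO ESC. The fit estimated 1 spread per gene over all 14 arrays, the ESC arrays included. Its standard errors and adjusted p for EB thus rest in part on the less variable ESC arrays and can be too small. Afp, a plasma protein of visceral endoderm, gave 7454, 1291, 3927, 9302 and 17546 in TKO EB and 15211, 6873 and 15732 in WT EB against 5.13 to 22.6 in ESC, so every EB array carried this mark of differentiation. In whole aggregates, fewer cells of a type and less RNA per cell cannot be told apart. The median log2 difference of all genes was -0.10, and quantile normalization moved it to 0, so list medians are read beside this value.

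The TKO EB arrays differed among themselves more than the WT EB arrays did. Across genes, the array labelled Ta1-12 had a mean correlation of 0.956 with the WT EB arrays and of 0.872 with the other TKO EB arrays. For the other 4 lines the correlation with WT EB was 0.931 in 2-55-2, 0.902 in 14-14-4, 0.899 in 7-4-1 and 0.845 in Dutch. Genes at least 2-fold above the highest WT EB array numbered 128 in 2-55-2, 298 in 14-14-4, 466 in 7-4-1, 831 in Dutch and 135 in the array labelled Ta1-12. Genes at least 2-fold below the lowest WT EB array numbered 391, 838, 713, 1403 and 45 in the same order. No gene was 2-fold outside the WT EB range on the same side in all 5 arrays. In exactly 4 arrays, 37 genes were above and 114 below, and the array that did not share them was the one labelled Ta1-12 for all 37 and for 111 of the 114.

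When each TKO EB array was set aside in turn, the genes that separated the other 4 from WT EB were counted, with the share also separated in it. Without the array labelled Ta1-12, 870 genes (6.06% of those tested) were higher and 1962 (13.7%) lower in the other 4 lines with no overlap with WT EB, and that array lay on the same side in 13.4% and 22.2% of them. For each of the other lines set aside in this way, the share was 58.5% to 83.6% of genes higher and 61.8% to 87.9% of genes lower. The genes that held were the same 117 higher and 436 lower ones in each case, those without overlap in every TKO EB array. The shares thus differ only through the size of the sets, from 140 to 870 higher and 496 to 1962 lower. Sets for the other lines already required the array labelled Ta1-12 to separate, so the shares do not measure how well a line matched the others. All sets use the same WT EB arrays.

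Leaving out 1 EB array at a time gave 0 called genes for each array but TKO EB Ta1-12, with 1384 genes, and WT EB R1, with 1. Leaving out line Ta1-12 at both stages gave 1089 of 14192 genes (7.67%), 387 higher (2.73%) and 702 lower (4.95%), of which 768 differed at least 2-fold. Under quantile normalization these were 552 higher and 449 lower. Line Ta1-12 was left out for its Rbl1 signal, with its place among the other arrays also known. Rb1, lowest in this line, gave no such reason. The calls thus describe the other 4 lines and are no independent test of them. Fitted on the EB arrays alone, 25 genes passed, and 0 with all 5 lines. Without WT EB B21 229 genes passed and without WT EB R1 609. Of 72 genes named here that passed without line Ta1-12, 10 also passed on the EB arrays alone (Serpinb7, Upk3a, Cenpf, Cdh5, Psca, Kcne3, Dapl1, Tmprss11a, Rian and Mirg), and 21 of the 64 still tested passed without WT EB B21. In the following, "rose" and "fell" refer to the fit of all 14 arrays less line Ta1-12, with n = 4 and 3, and each test is limma's with adjustment over all genes.

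**Figure D2:**
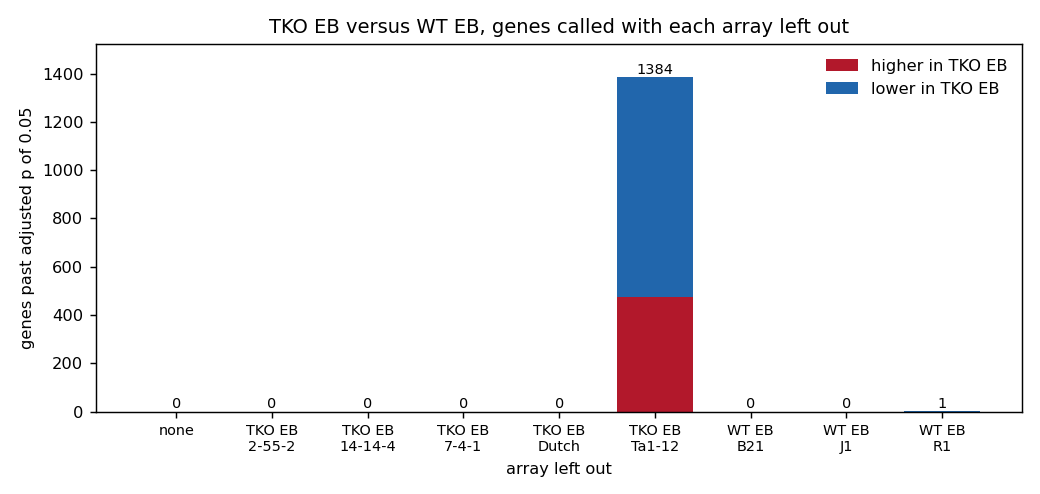
Number of genes past an adjusted p of 0.05 in TKO EB versus WT EB (vertical axis) with no array left out and with each EB array left out in turn (horizontal axis), split into genes higher and lower in TKO EB. The bar stands at 1384 without the array labelled TKO EB Ta1-12, at 1 without WT EB R1 and at 0 elsewhere.

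The array labelled Ta1-12 took no part in choosing the 1089 genes, and its position on them was measured on a scale where 0 is the WT EB mean and 1 the mean of the other 4 TKO EB arrays. Its median position was -0.13, with quartiles of -0.36 and 0.08. It lay nearer the WT EB mean for 1043 genes (95.8%), within the WT EB range for 656, beyond it on the side of the other TKO arrays for 133 and beyond it on the opposite side for 300. The WT EB arrays served both to choose and to place the genes. Among the 33 E2F targets that rose it lay within the WT range for 31, and among the 36 G2/M genes that rose for 34.

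**Figure D3:**
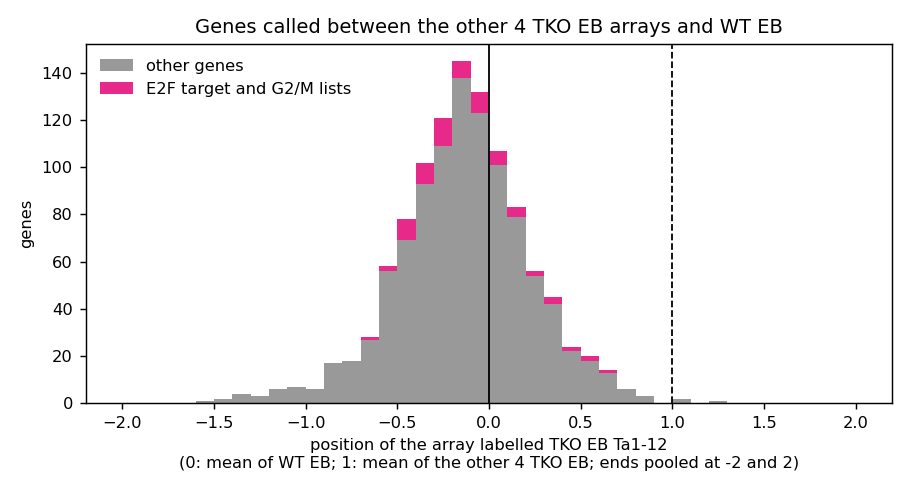
Histogram of the position of the array labelled TKO EB Ta1-12 on the 1089 genes called between the other 4 TKO EB arrays and WT EB (horizontal axis, 0 the WT EB mean and 1 the mean of the other 4), with the number of genes on the vertical axis and members of the E2F target and G2/M lists in colour. The bulk of genes lies about the WT EB mean, with a median of -0.13.

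Genes that separated all 5 TKO EB arrays from all 3 WT EB arrays numbered 117 higher (0.815% of genes tested) and 436 lower (3.04%), and 225 and 242 after quantile normalization. Of those whose group means differed at least 2-fold, 6 higher genes and the 10 lower genes of smallest p are given. None of these passed with all lines. Zfp367, a zinc finger gene, had intensities of 1795, 1834, 3076, 1232 and 1035 in TKO EB and 634, 949 and 475 in WT EB. TKO EB 7-4-1 was highest, and the array labelled Ta1-12 was lowest of the TKO arrays but above WT EB J1. The log2 difference was 1.34 ± 0.33 (adjusted p = 0.304), and it rose by 1.51 ± 0.32 without line Ta1-12 (adjusted p = 0.0207).

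Sox2, a transcription factor of pluripotent and neural cells, gave 4196, 8581, 6558, 10809 and 4485 in TKO EB and 3479, 3599.6 and 2378 in WT EB. Its TKO values spread from just above WT EB J1 to near the ESC level, with a log2 difference of 1.06 ± 0.27 (adjusted p = 0.304). Fut9, which makes the SSEA-1 antigen of early embryonic cells, gave 69.7, 192, 191, 80.7 and 113 against 45.7, 63.5 and 24.2, all low, with a difference of 1.39 ± 0.36 (adjusted p = 0.304). Mtm1, a phosphoinositide phosphatase, gave 5462, 15704, 1286, 13683 and 1168 against 709, 1063 and 587. In 14-14-4 and Dutch it was at or near the level of ESC (15330 to 17918), while 7-4-1 and the array labelled Ta1-12 lay just above WT EB J1, and 1 of its 2 other probe sets had the opposite sign. The other higher genes were Pipox, an enzyme that oxidises pipecolic acid and sarcosine, at 95.7 to 1168 in TKO EB, and the zinc finger gene Zfp934, where 14-14-4 stood alone at 3514 and the other 4 lines at 96.5 to 157. In TKO ESC 7-4-1 Zfp934 was at 3225 and in the other ESC arrays at 194 to 325, so it was set apart in single lines of both stages.

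Timp1, an inhibitor of matrix metalloproteinases, had the lowest adjusted p with all lines. Its intensities were 801, 1151, 1202, 1191 and 854 in TKO EB and 3548, 2326 and 2729.6 in WT EB. All TKO arrays lay well below the lowest WT array, WT EB J1, and the array labelled Ta1-12 lay among the other TKO lines. The log2 difference was -1.46 ± 0.21 (adjusted p = 0.121; -1.40 ± 0.22 without line Ta1-12, adjusted p = 0.00804). Serpinb7, a serpin, gave 49.6, 15.7, 9.82, 31 and 101 against 301, 188 and 164, with 3 TKO arrays under the floor and the array labelled Ta1-12 nearest to WT EB. Its difference was -2.26 ± 0.35 (adjusted p = 0.146; -2.56 ± 0.25 without line Ta1-12, adjusted p = 0.00131). Cxcl2, a chemokine that draws neutrophils, gave 26.9, 31.6, 16.2, 26.7 and 42.7 against 189, 220.3 and 63.7. The 4 other TKO lines were under the floor, the array labelled Ta1-12 was just above it, and the fold change is understated for them (-2.03 ± 0.32, adjusted p = 0.146).

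Pilra, an inhibitory receptor of myeloid cells, gave 35.6, 67, 27.1, 58.8 and 63.4 in TKO EB and 154, 107 and 182 in WT EB. Upk3a, a membrane protein of urothelium, gave 28.8, 24.7, 20.9, 27.7 and 109 and 168, 138 and 126, with the array labelled Ta1-12 just under WT EB R1 and the other lines under the floor. Pbxip1, which binds PBX homeodomain proteins, gave 593, 272, 570.2, 325 and 862 and 1413, 1283 and 1292. In each of these the array labelled Ta1-12 was the TKO array nearest to WT EB or close to it. The folding sensor Uggt2, Gmip, the G protein subunit Gng7 and Mycbpap had differences of -1.36 ± 0.29, -1.41 ± 0.31, -1.08 ± 0.25 and -1.02 ± 0.23, each with an adjusted p of 0.304, and the array labelled Ta1-12 was the highest TKO array in all 4. Without line Ta1-12 all 10 lower genes fell, and of the higher ones Zfp367, Sox2 and Mtm1 rose.

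**Figure D4:**
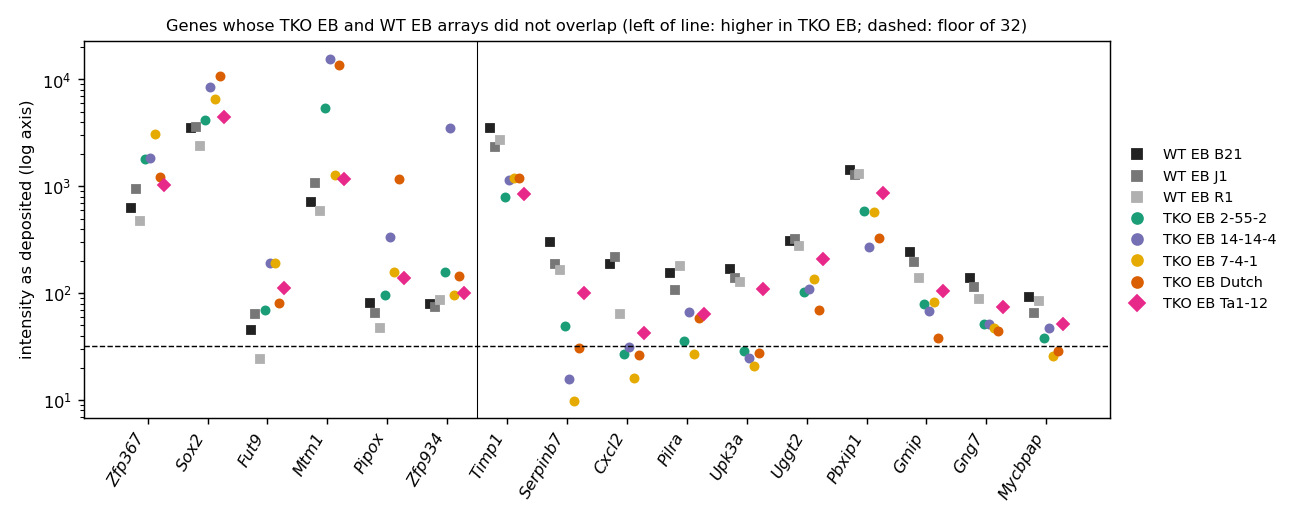
Intensity as deposited (log axis) in each EB array of 16 genes without overlap between TKO EB and WT EB. Their group means were at least 2-fold apart, with 6 higher genes and the 10 lower ones of smallest p. The higher genes stand left of the vertical line, and the floor of 32 is dashed. For Timp1 all TKO EB arrays lie between 801 and 1202 and the WT EB arrays between 2326 and 3548.

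The mean of E2F targets of G1/S and replication was above WT EB in every TKO line but Ta1-12. All 41 tested members of 45 in the list had a log2 difference above 0 with all lines, with a median of 0.98 beside -0.10 for all genes. Of them, 39 had an unadjusted p under 0.05 (4.44% of all genes were higher at this level), and 0 passed. In 36 members the 4 other TKO lines did not overlap with WT EB (6.06% of genes were higher in this way), and 33 rose (2.73% of genes rose). The mean log2 intensity of the list was 11.67, 11.72, 11.85, 11.80 and 10.61 in TKO EB and 9.84, 11.09 and 10.69 in WT EB. The first 4 lines lay close together, the array labelled Ta1-12 between WT EB B21 and R1, and WT EB B21 lowest of all 8. In ESC the mean was 11.67 to 11.78 in WT and 11.75 to 11.91 in TKO, so the 4 lines lay at the ESC level.

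Mcm3, a helicase subunit, gave 7253, 6885, 7448, 6301 and 3512 in TKO EB and 1613, 3824 and 3001 in WT EB. The first 4 lines lay above WT EB and the array labelled Ta1-12 between WT EB R1 and J1, and Mcm3 rose by 1.40 ± 0.25 (adjusted p = 0.012). Mcm2 gave 6004, 6439, 6384, 6479 and 4431 and 2415, 4629.9 and 3933 in the same arrangement and rose by 0.84 ± 0.18 (adjusted p = 0.0205). Mcm6 gave 11861, 9946, 13092, 11117 and 9085 and 4832, 9185 and 6525, with WT EB J1 close under the TKO lines, and rose by 0.79 ± 0.19 (adjusted p = 0.0307), while 1 of its 2 other probe sets had the opposite sign. Usp1, a deubiquitinase of the Fanconi anaemia and PCNA pathways, was 1 of 2 members without overlap in all 5 lines, at 6586, 6707, 7224, 5937 and 5651 against 3081, 5640.4 and 4294. The array labelled Ta1-12 was barely above WT EB J1. Usp1 rose by 0.65 ± 0.16 (adjusted p = 0.0388). On the EB arrays alone 0 members of the list passed, and without WT EB B21, WT EB R1 or TKO EB 14-14-4 the number that rose was 20, 21 and 21.

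Genes of G2 and mitosis showed the same arrangement. All 37 tested members of 38 had a difference above 0 with all lines, with a median of 1.02, and 30 had an unadjusted p under 0.05. In all 37 the 4 other TKO lines did not overlap with WT EB, in 0 did all 5, and 36 rose. Of all genes, 4.44% were higher at an unadjusted p under 0.05 and 2.73% rose. Without overlap, 6.06% of all genes were higher in these 4 lines and 0.815% in all 5. The list mean was 11.70, 11.74, 11.98 and 12.00 in the first 4 lines and 9.73, 10.83 and 10.84 in WT EB, and 11.68 to 11.86 in ESC. In the array labelled Ta1-12 it lay between WT EB B21 and J1, at -0.47 relative to the mean of WT EB. Cenpf, a kinetochore protein, gave 4153, 3383, 5586, 4047 and 728 in TKO EB and 724, 1272 and 1169.9 in WT EB. The first 4 lines lay at least 2-fold above every WT array and the array labelled Ta1-12 beside WT EB B21, and Cenpf rose by 2.04 ± 0.23 (adjusted p = 0.00213). Ndc80, a kinetochore subunit, gave 983, 1031, 1379, 1226 and 320.1 and 199, 514 and 446 and rose by 1.68 ± 0.29 (adjusted p = 0.0106). Ect2, the exchange factor that starts cytokinesis, rose by 1.36 ± 0.21 (adjusted p = 0.00768), and the kinesin Kif23 by 0.89 ± 0.23 (adjusted p = 0.0388), where 1 of 2 other probe sets had the opposite sign. On the EB arrays alone 2 members passed.

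Among the regulators themselves the differences fell on few genes. Of 10 E2F and DP factors, 2 rose (2.73% of genes rose). They were E2f7 and E2f8, which encode the atypical E2F repressors and are themselves E2F targets. E2f7 gave 2115, 1371, 2681, 1031 and 402 in TKO EB and 285, 945 and 415 in WT EB, and E2f8 gave 1527, 1046, 2059, 676 and 492 and 312, 739 and 307. Both had the array labelled Ta1-12 within the WT range, and Dutch, the next lowest line, above WT EB J1 for E2f7 and below it for E2f8. They rose by 1.80 ± 0.42 and 1.56 ± 0.41 (adjusted p = 0.0297 and 0.0442). E2f5 and the partner Tfdp2 had 0.74 ± 0.27 and 0.34 ± 0.21 (adjusted p = 0.123 and 0.35). Promoters of 3 of 8 genes of this list held the E2F letters, where 3.64% of genes tested did.

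Of 7 MuvB and Myb genes, 3 rose (2.73% of genes rose). Lin9, a MuvB subunit, gave 1564, 971, 2075, 977 and 708 in TKO EB and 509.9, 673 and 660.5 in WT EB, without overlap in all 5 lines, and rose by 1.12 ± 0.29 (adjusted p = 0.04). Lin54, its DNA-binding partner, and Mybl1 rose by 0.96 ± 0.26 and 1.15 ± 0.26 (adjusted p = 0.0483 and 0.0237). Mybl2, the B-Myb factor that joins MuvB in cycling cells, gave 635, 2536, 589.7, 3493 and 357 and 109.6, 199 and 775. Its TKO values spread widely and overlapped with WT EB R1, and its difference of 2.39 ± 0.73 did not pass (adjusted p = 0.0717).

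The D cyclins Ccnd2 and Ccnd3 fell. Ccnd2 gave 3355, 2531, 1179.5, 1385 and 12194 in TKO EB and 12983, 10229 and 10518 in WT EB. The 4 other lines lay far below every WT array, and the array labelled Ta1-12 lay between WT EB R1 and B21. Ccnd2 fell by 2.53 ± 0.41 (adjusted p = 0.00925). Ccnd3 gave 4758, 5071, 3134, 3906 and 5688 and 7361, 6424 and 6731, without overlap in all 5 lines, and fell by 0.72 ± 0.15 (adjusted p = 0.0188). Ccnd1 (-0.75 ± 0.40, adjusted p = 0.273) and the kinase Cdk6 (-1.71 ± 0.62, adjusted p = 0.12) did not pass, so 2 of 6 members of the list fell (4.95% of genes fell).

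None of the 7 CDK inhibitors passed. Cdkn2b, the INK4 inhibitor p15, gave 1319.7, 1775, 535, 745 and 2832 in TKO EB and 3848, 2317 and 1725 in WT EB, with a difference of -1.34 ± 0.48 (adjusted p = 0.117). Cdkn2c, p18, gave 1469, 1216, 2118, 347 and 588 and 616, 849.9 and 289, and Cdkn2d, p19, gave 1719, 1321, 2975, 1229 and 701 and 792, 1137 and 1054. In 2-55-2, 14-14-4 and 7-4-1 both lay above all WT arrays, and in Dutch only Cdkn2d did. Their differences were 1.01 ± 0.58 and 0.79 ± 0.30 (adjusted p = 0.307 and 0.128). Cdkn2a, which encodes p16 and p19Arf, gave 298, 389, 438, 215 and 582 and 1397, 376 and 292, with WT EB B21 above all others.

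**Figure D5:**
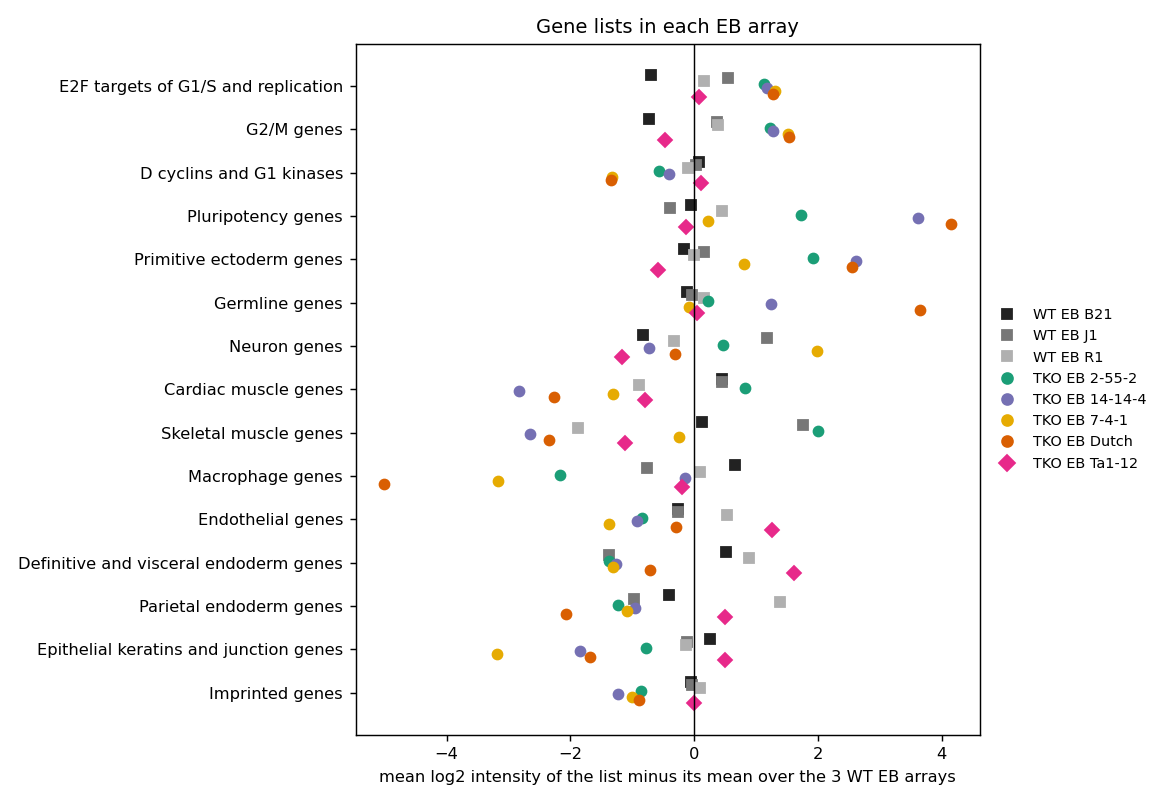
Mean log2 intensity of each gene list in each EB array minus its mean over the 3 WT EB arrays (horizontal axis), with squares for WT EB, circles for TKO EB and diamonds for the array labelled TKO EB Ta1-12. For E2F targets and G2/M genes 4 TKO lines lie together to the right of WT EB, while pluripotency, germline, muscle and macrophage genes spread over the TKO lines.

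The mean of pluripotency genes was above WT EB in 3 TKO lines and spread widely between lines. Of 30 tested members, 28 had a difference above 0, with a median of 1.92. An unadjusted p under 0.05 was found in 14 (4.44% of all genes were higher at this level), and 8 rose (2.73% of genes rose). Members above all WT EB arrays numbered 20 in 2-55-2, 25 in 14-14-4, 15 in 7-4-1, 25 in Dutch and 2 in the array labelled Ta1-12. Of all genes, 18.5%, 23.4%, 28.7%, 30.9% and 17.4% lay above in these arrays. In the array labelled Ta1-12, 11 members lay below all WT EB arrays, where 21.7% of all genes did. The list mean was 8.87, 10.76, 7.35, 11.29 and 7.00 in TKO EB and 7.09, 6.74 and 7.58 in WT EB, beside 11.27 to 12.16 in ESC. TKO EB 7-4-1 thus had the cell cycle lists at the level of the other lines and the mean of pluripotency genes within the WT range. TKO EB Dutch and 14-14-4 lay near ESC on both.

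Pou5f1, the core factor Oct4, gave 1542, 6133, 147, 7410.3 and 17.1 in TKO EB and 38.8, 32.8 and 55.2 in WT EB. Dutch and 14-14-4 were nearest to ESC (9879.8 to 12950.1), 7-4-1 lay above WT EB but far below the other 3 lines, and the array labelled Ta1-12 lay under all of them and under the floor. It rose by 5.44 ± 1.06 (adjusted p = 0.0159). Nanog gave 823, 4333, 203, 8417 and 20.3 and 56.8, 33.6 and 54.8 and rose by 5.06 ± 1.00 (adjusted p = 0.0162). The markers Zfp42, Utf1, Dppa2 and Dppa5a rose by 4.41 ± 1.04, 4.27 ± 1.03, 4.01 ± 1.00 and 4.31 ± 0.65 (adjusted p = 0.0299, 0.0329, 0.0361 and 0.00768). The order of the lines was the same in Pou5f1, Nanog, Zfp42, Utf1 and Dppa2, with Dutch highest, then 14-14-4, 2-55-2, 7-4-1 and Ta1-12. Not every member that rose had it, since in Sox2 the lowest TKO array was 2-55-2. Tcfl5, a helix-loop-helix factor, and Mid1, a ubiquitin ligase, were also among the 10 largest rises without overlap, a choice made after their values were seen. Tcfl5 rose by 2.98 ± 0.36 (adjusted p = 0.00307). Mid1 gave 1535, 324, 233, 686 and 49.2 against 37, 79.5 and 26.6 and rose by 3.55 ± 0.75 (adjusted p = 0.0201), and in ESC it also stood apart by line, at 4022 in TKO Dutch, 485 in TKO 7-4-1 and 19.1 to 32.2 in the other arrays.

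Genes of the primitive ectoderm, the pluripotent layer that follows the ESC state, were also spread by line. Of 10 tested, 3 rose (2.73% of genes rose). Lefty2, an inhibitor of Nodal, gave 431, 3476, 99.8, 1519 and 11.3 in TKO EB and 37, 19.9 and 40.4 in WT EB and rose by 4.25 ± 0.93 (adjusted p = 0.0232). Nodal itself rose by 3.37 ± 0.92 (adjusted p = 0.049), and the homeobox gene Otx2 by 2.82 ± 0.67 (adjusted p = 0.0314). In 7-4-1 Nodal, at 46.1, lay under WT EB R1, at 54.

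Germline genes were highest in Dutch and 14-14-4, and 0 of 15 passed. Members above all WT EB arrays numbered 13 in Dutch and 12 in 14-14-4, where 30.9% and 23.4% of all genes were above, and 2 to 4 in the other 3 lines. Dazl, an RNA-binding protein of germ cells, gave 14.5, 62.8, 12, 4564 and 3.49 in TKO EB and 21.1, 7.15 and 6.53 in WT EB, and was at 4564 in Dutch alone. This exceeded all ESC arrays (175 to 1967). Morc1, a chromatin gene of germ cells, gave 149, 912, 15.9, 3456 and 13.6 and 20.6, 13.2 and 22.5, high in Dutch and 14-14-4. The list mean was 9.65 in Dutch, 7.24 in 14-14-4 and 5.91 to 6.22 in the other 3 TKO EB, against 5.88 to 6.15 in WT EB.

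Muscle genes varied widely between the TKO lines. Of 28 cardiac genes tested 1 had a difference above 0 with all lines, the median was -1.35, and 0 passed. Members below all WT EB arrays numbered 23 in 14-14-4, 23 in Dutch, 13 in 7-4-1, 6 in the array labelled Ta1-12 and 3 in 2-55-2, where 41.4%, 41.5%, 35.1%, 21.7% and 41.7% of all genes were below. In 2-55-2, 15 of the 28 lay above all WT EB arrays, where 18.5% of all genes did. Actc1, cardiac actin, gave 19932, 71.9, 10558, 3416 and 6226 in TKO EB and 12872, 17755 and 3667 in WT EB. It was highest of all 8 arrays in 2-55-2 and near the ESC level in 14-14-4. Myl7, an atrial myosin light chain, gave 10593, 100.5, 1257, 861 and 626 and 3642, 8550.3 and 593, and Myh3, embryonic myosin of skeletal muscle, gave 9574, 9.79, 2253, 183 and 529 and 2632, 7273 and 238. In both, 2-55-2 was the highest array and 14-14-4 the lowest. Acta1, skeletal actin, had the same extremes (12057 and 202).

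Among smooth muscle genes, 1 of 8 fell (4.95% of genes fell). Below all WT EB arrays lay 1, 6, 5, 3 and 6 of the 8 in the array order above. Of all genes, 41.7%, 41.4%, 35.1%, 41.5% and 21.7% did. Above them lay 2 in 2-55-2 and 0 in the other lines, where 17.4% to 30.9% of all genes did. On this list the array labelled Ta1-12 thus had as many members below WT EB as 14-14-4. Myh11, smooth muscle myosin, gave 26.6, 36.4, 84.1, 26.5 and 176 in TKO EB and 164, 133 and 218 in WT EB and fell by 2.00 ± 0.33 (adjusted p = 0.0101), but its 1 other probe set had the opposite sign. Actg2, enteric actin, had -1.81 ± 0.54 (adjusted p = 0.0678), and Myocd, the coactivator of smooth muscle genes, -1.05 ± 0.44 (adjusted p = 0.163).

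Macrophage genes had the lowest median of the lists, -2.12 over 13 tested members with all lines. Of the 13, 0 had a difference above 0, 7 had an unadjusted p under 0.05, 2 did not overlap in all 5 lines, and 1 fell. Of all genes, 9.68% were lower at this unadjusted level, 3.04% were lower without overlap in all 5 lines, and 4.95% fell. Lyz2, a lysozyme of macrophages and neutrophils, gave 976, 1597, 354, 21.6 and 3384 in TKO EB and 9341, 7161 and 4505 in WT EB. Every TKO array lay below every WT array, Dutch under the floor and the array labelled Ta1-12 nearest to WT EB. It fell by 4.20 ± 1.03 (adjusted p = 0.0351). Lyz1 gave 2193, 3573, 775, 29.2 and 6858 and 14667, 11672 and 8219 with a difference of -4.08 ± 1.24 (adjusted p = 0.0714); the probe sets of these near-identical genes may share signal, and 1 of 2 others of Lyz1 had the opposite sign. C1qa, a complement subunit made by macrophages, gave 388, 3140.5, 134, 3.79 and 3583 and 5227, 1977 and 3323. In 14-14-4 and in the array labelled Ta1-12 it lay within the WT range, and in Dutch, at 3.79, it was close to ESC (1.66 to 3.77). Cd14 and the leukocyte phosphatase Ptprc had -2.58 ± 0.78 and -2.05 ± 0.58 and did not pass (adjusted p = 0.07 and 0.0563), with 1 other probe set of Ptprc of opposite sign. The list mean in TKO EB was 8.81, 10.82, 7.81, 5.96 and 10.78, and 11.64, 10.22 and 11.07 in WT EB.

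The list of keratins and junction genes holds genes of stratified and of simple epithelium, and 3 of its 14 members fell. In 6 members the 4 other lines did not overlap with WT EB (13.7% of all genes were lower in this way, and 4.95% fell). In the array labelled Ta1-12, 12 of the 14 lay above all WT EB arrays, where 17.4% of all genes did. Below all WT EB arrays lay 11 members in 2-55-2, 14 in 14-14-4, 14 in 7-4-1 and 9 in Dutch, where 41.7%, 41.4%, 35.1% and 41.5% of all genes did. Trp63, the p63 factor of basal epithelium, gave 256, 53.5, 60.1, 50.4 and 741 in TKO EB and 671, 518 and 487 in WT EB and fell by 2.79 ± 0.48 (adjusted p = 0.0106). The basal keratins Krt14 and Krt5 fell too, with log2 differences of -2.51 ± 0.43 and -4.11 ± 0.97 (adjusted p = 0.0106 and 0.0295). Krt15 gave 8325, 289.9, 210.5, 19 and 13629 and 11899, 9241 and 7575, with 2-55-2 within the WT range, and its difference of -4.72 ± 1.35 did not pass (adjusted p = 0.0582).

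Genes among the 10 largest falls without overlap were named after their values were seen. Cyp2f2, a cytochrome P450 of airway secretory cells, gave 638, 47.6, 57.2, 43.7 and 8591 in TKO EB and 7620.3, 3097 and 2611 in WT EB, and fell by 5.40 ± 0.82 (adjusted p = 0.00768). Psca, a surface protein of bladder, stomach and prostate epithelium, gave 38.3, 15.7, 6.62, 32.5 and 6559 and 1866, 422 and 712, and fell by 4.62 ± 0.39 (adjusted p = 0.000553). In Cyp2f2, Psca and the lung carbonyl reductase Cbr2 (167, 63.9, 26.7, 25.4 and 6303 against 3961, 1679 and 479.8) the array labelled Ta1-12 exceeded every WT EB array. The same held for Cym, the gastric protease chymosin, and for Krt6a, a keratin of suprabasal cells. The airway protein Bpifa1, the serpin Serpinb11, Krt6a, Cym and the prostaglandin D synthase Ptgds fell as well, with log2 differences of -4.56 ± 0.61, -4.66 ± 0.58, -4.43 ± 1.13, -4.66 ± 0.92 and -4.25 ± 0.97 (adjusted p = 0.00489, 0.00327, 0.0397, 0.0162 and 0.0261).

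The endothelial genes Cdh5 and Esam and the endoderm genes Hnf4a and Ttr fell, and in these 4 the array labelled Ta1-12 lay above WT EB and the other lines below. Cdh5, VE-cadherin of endothelium, gave 139.7, 77.1, 86, 88.4 and 3119.7 in TKO EB and 768, 774 and 2459 in WT EB and fell by 3.58 ± 0.38 (adjusted p = 0.00189). Esam, an endothelial adhesion molecule, fell by 1.46 ± 0.38 (adjusted p = 0.0411), and these were 2 of 11 tested (4.95% of all genes fell). In the array order above, 4, 4, 7, 2 and 0 of the 11 lay below all WT EB arrays. Of all genes, 41.7%, 41.4%, 35.1%, 41.5% and 21.7% did. Above all WT EB arrays lay 0, 1, 0, 4 and 8 of the 11, where 18.5%, 23.4%, 28.7%, 30.9% and 17.4% of all genes did. Only in 7-4-1 did the share of members below, 63.6%, exceed that of all genes. In the first 2 lines it was 36.4% and in Dutch 18.2%. By these counts Cdh5 and Esam did not stand for the list in lines other than 7-4-1. The list mean was 7.03, 6.94, 6.49 and 7.57 in the first 4 lines, with Dutch just under WT EB at 7.60, 7.60 and 8.39. Hnf4a, a factor of visceral endoderm and liver, gave 88.7, 49.1, 59.6, 212 and 2198 and 639, 317 and 682 and fell by 2.59 ± 0.46 (adjusted p = 0.0114). Ttr, a transport protein of visceral endoderm, gave 3811, 2713, 2369, 6227 and 15112 and 10794, 7226 and 12433 and fell by 1.49 ± 0.32 (adjusted p = 0.0208). Foxa1 and Afp had -1.95 ± 0.56 and -1.45 ± 0.57 and did not pass (adjusted p = 0.0588 and 0.146), so 2 of 18 endoderm genes fell. In the array labelled Ta1-12, 11 of the 18 endoderm genes lay above all WT EB arrays, where 17.4% of all genes did. Among them was Apoa4, an apolipoprotein of gut and yolk sac, at 2900 against 38.8 to 525 in WT EB. Of 11 parietal endoderm genes, Thbd, thrombomodulin, fell by 2.73 ± 0.66 (adjusted p = 0.0332) with the array labelled Ta1-12 within the WT range, and Sparc had -0.56 ± 0.16 (adjusted p = 0.0577).

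Noncoding RNAs of the Dlk1-Dio3 imprinted region differed between lines. Meg3, a maternally expressed noncoding RNA, gave 51.7, 53, 46.8, 1241 and 5832 in TKO EB and 13547, 12392 and 4798 in WT EB. In 3 TKO lines it lay between 46.8 and 53, in Dutch intermediate, and in the array labelled Ta1-12 within the WT range. Rian and Mirg, noncoding RNAs of the same cluster, gave 39.2, 27.2, 32.6, 85.5 and 559 and 49.9, 59, 54.8, 62.7 and 257 in TKO EB and 1308, 1439 and 603 and 786, 917 and 312 in WT EB. The 3 genes fell, with log2 differences of -6.37 ± 1.42, -4.59 ± 0.76 and -3.43 ± 0.54 (adjusted p = 0.0241, 0.00985 and 0.00831). They were 3 of 18 imprinted genes tested (4.95% of all genes fell). In TKO ESC 7-4-1 Meg3 was already at 66.4, while TKO ESC Dutch and Ta1-12 were at 5079 and 6937 and WT ESC at 4444 to 6597.

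Neural genes differed between lines, and few passed, where 2.73% of all genes rose and 4.95% fell. Members of the neuron list above all WT EB arrays numbered 14 of 17 in 7-4-1 and 0 to 2 in the other TKO lines. Of all genes, 28.7% lay above in 7-4-1 and 17.4% to 30.9% in the other TKO lines. Stmn2, a microtubule regulator of neurons that ESC also carried (7593 to 9230), gave 755, 2433, 3119.9, 2764 and 82.7 in TKO EB and 119, 795 and 202 in WT EB and rose by 2.90 ± 0.61 (adjusted p = 0.0194), the 1 member that passed. Of 13 neural progenitor genes Emx2, a forebrain and urogenital factor, fell by 1.76 ± 0.46 (adjusted p = 0.0441), and Fabp7, of radial glia, ran from 46.6 in 14-14-4 to 8666 in 7-4-1. In 7-4-1, 18 of 21 Hox genes tested lay above all WT EB arrays (28.7% of all genes did), with Hoxb6 at 1791 against 36.8 to 81 in WT EB. In Dutch 17 of the 21 lay below all WT EB arrays (41.5% of all genes did), with Hoxb6 at 9.45.

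The remaining lists held few calls, beside 2.73% of all genes that rose and 4.95% that fell. Of 16 genes of polycomb complexes and DNA methylation, Ezh2 and Suz12, subunits of PRC2, rose by 1.09 ± 0.25 and 0.88 ± 0.22 (adjusted p = 0.0295 and 0.0391), while Dnmt1, the maintenance methyltransferase, had 0.92 ± 0.25 (adjusted p = 0.0508) and Ring1 -0.94 ± 0.28 (adjusted p = 0.068). Of 17 immediate early and stress genes, Junb fell by 1.79 ± 0.48 (adjusted p = 0.048). Below all WT EB arrays lay 7 to 15 of the 17 in the first 4 lines, where 35.1% to 41.7% of all genes did. In the array labelled Ta1-12, 9 lay below and 4 above, where 21.7% and 17.4% of all genes did. Of 12 BCL2 family genes, the death promoter Bad fell by 1.23 ± 0.23 (adjusted p = 0.0141), and Bak1 had -0.62 ± 0.19 (adjusted p = 0.0748). Of 19 fibroblast genes, Thy1 fell by 1.99 ± 0.36 (adjusted p = 0.012), and Col6a1 had -1.73 ± 0.65 (adjusted p = 0.13). Of 12 early mesoderm genes 1 rose. No member passed among 17 p53 targets (median -0.02 with all lines), 20 hypoxia and glycolysis genes (0.00), 15 interferon response genes (-0.15), 25 Notch, Wnt and BMP signalling genes (-0.17), 9 skeletal muscle (-0.79), 7 erythroid (-0.17), 7 cartilage and bone (-0.50), 8 trophoblast (0.32) and 6 glia genes (-0.26). List medians are from all 5 lines and included the array labelled Ta1-12.

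The EB difference was set against the same contrast in ESC by an interaction test. With all lines 0 of 14360 genes passed (0%), with a lowest adjusted p of 0.511 and 519 genes (3.61%) at an unadjusted p under 0.05, 167 higher (1.16%) and 352 lower (2.45%). In ESC itself 0 genes passed and 394 (2.74%) had an unadjusted p under 0.05, 97 higher (0.675%) and 297 lower (2.07%). The median ESC difference was 0.08 for E2F targets and 0.00 for G2/M genes. Without line Ta1-12, 5 genes passed the interaction test (0.0352%), Kcne3, Upk3a, Dapl1, Psca and Tmprss11a, named here after their values were seen. All 5 were under the floor in every ESC array, so the interaction restates their EB difference. Kcne3, a potassium channel subunit of epithelia, gave 28.6, 16.7, 15.3, 14.9 and 385 in TKO EB and 338, 225 and 226 in WT EB, with an interaction of -3.01 ± 0.29 (adjusted p = 0.00912). Dapl1 and the airway protease Tmprss11a had -2.75 ± 0.35 and -1.90 ± 0.26 (adjusted p = 0.0403 and 0.0482). In these 5 genes the 4 other lines lay near or under the floor and the array labelled Ta1-12 beside or above WT EB.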

How the data were processed

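Trizol-extracted total RNA was labelled for Affymetrix arrays, per the labels. The deposited series table gives, for 14 arrays, 45101 probe sets each as linear intensity values (0.596 to 25702) that the authors had summarised from probes. Their background correction and scaling are not given in the sources used here. Values were used as deposited, raised to a floor of 32 and taken as log2, so that fold changes of genes under the floor are understated.

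Of the probe sets, 34958 had a single symbol in the platform annotation, 932 several and 9211 none, and for each of 18194 genes the set with the highest mean stood for the gene. A gene entered the test (14360 did) if 3 or more arrays had it over their 40th percentile. The limma fit (version 3.58.1, R 4.3.3) used every array with a mean for each group (eBayes with trend, Benjamini-Hochberg, threshold 0.05). It was also run on simulated data that gave a gene the same spread in every group. How it performs with the larger spread of TKO EB was not simulated. Errors are standard errors of this fit, and p-values measure only the spread between these arrays.

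Members, 35 gene lists and tests were chosen with earlier results of these data known. Named genes always included Rb1, Rbl1 and Rbl2. The 10 genes of smallest p in each direction without overlap, with group means at least 2-fold apart, were added. So were up to 4 genes of smallest p in each list and the 2 most variable members of lists that mark cell types. Clone names and sex-linked genes were left out. Leaving out line Ta1-12 was planned for its Rbl1 signal, and other settings of that fit were added after the data were seen. List genes without a single-symbol probe set were not analysed here. Promoters came from RefSeq (GRCm38.p6).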

Additional observations from a re-analysis of the deposited data

Results flagged for a closer look

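In 26 of 146 sets of values examined, 1 TKO EB array stood apart from the other 4, with a gap to its nearest neighbour of more than 0.71 of the group's whole range on the log2 scale. Chance gives this in about 1 of 20 groups, the sets share arrays and genes, and many were chosen for their spread. The array labelled TKO EB Ta1-12 was the one apart in 23 of them.

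It was the lowest TKO array for the means of the E2F target list (0.855) and the G2/M list (0.848), and for Mcm3 (0.777), Mcm2 (0.80), Ndc80 (0.768), Cenpf (0.754) and Dnmt1 (0.715). It was the highest for the means of the endoderm list (0.778) and the BCL2 family list (0.734), and for the endothelial genes Cdh5 (0.84) and Esam (0.849), Apoa4 (0.837) and Mirg (0.86). The same held for further genes that fell, with Psca at 0.966, Cym at 0.721, Serpinb11 at 0.76, Ptgds at 0.856 and Dapl1 at 0.944. For Cxcl2, Upk3a, Bpifa1, Kcne3 and Tmprss11a the ratio was 1, since the other 4 arrays all lay at the floor.

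TKO EB Dutch stood apart as highest for Dazl (0.864) and as lowest for the mean of the CDK inhibitors (0.71). TKO EB 14-14-4 stood apart as highest for Zfp934 (0.864).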

How the results depend on the processing

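With all lines, limma called 0 genes under quantile normalization, a floor of 16, no filter, a filter at the 60th percentile, the mean of all probe sets, the EB arrays alone (1010 genes at an unadjusted p under 0.05), array weights and robust moderation, and 8 at a floor of 64. Leaving out 1 EB array gave 0 to 1384. Without line Ta1-12 there were 1089 and without Ta1-12 and Dutch 493. The interaction called 1 gene without a filter, 0 to 26 on leaving out 1 array, 5 without line Ta1-12 and 1 without Ta1-12 and Dutch. Genes without overlap numbered 225 higher and 242 lower under quantile normalization, 870 and 1931 without line Ta1-12, and 1094 and 2551 without both lines, where fewer arrays have to separate. On leaving out 1 array they numbered 140 to 870 higher and 495 to 1932 lower.

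With the line as a replicate block, which pairs EB and ESC of a line, 0 genes passed with all lines and 1089 without line Ta1-12. The block's correlation was 0.032 and -0.003, and it changed no call of a named gene in the fit without line Ta1-12.

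The 1089 genes became 25 on the EB arrays alone and 648 with array weights per group, 838 to 1099 under the settings of scale, floor, filter and probe sets, and 229 to 1165 on leaving out 1 array, with the lowest without WT EB B21 and 609 without WT EB R1. The 33 E2F targets that rose became 21 without a filter, 0 on the EB arrays alone and 20 to 37 on leaving out 1 array. The 36 G2/M genes became 2 on the EB arrays alone. The fit on the EB arrays alone had fewer arrays to estimate the spread of a gene and left out the ESC arrays. Their median SD was 0.211 in WT and 0.194 in TKO, beside 0.365 in TKO EB without Ta1-12. How much of the drop in calls this accounts for was not tested.

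Directions turned only in genes that were not called. Rb1 (-0.06) had 0.066 under quantile normalization, 0.21 without line Ta1-12, 0.13 without Ta1-12 and Dutch, and -0.41 to 0.26 on leaving out 1 array (-0.14 to 0.52 once line Ta1-12 was left out). On leaving out 1 array Cdkn2a ran from -0.99 to 0.14, Apoa4 from -1.94 to 0.23 and Fabp7 from -1.61 to 0.27 (-1.95 to 0.57 without line Ta1-12), with the turn without WT EB B21 for the first 2 and without TKO EB 14-14-4 for Fabp7. The number of arrays and probe sets near the floor limit precision.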
